A study of Arabidopsis thaliana with 3 samples.

Results

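Seedlings of an Arabidopsis thaliana line that overexpresses the transcription factor WRKY6 were set against wild-type seedlings, on 1 Affymetrix array for each genotype. The overexpressing line carries the genotype label 35S:WRKY6-9 and is called 35S:WRKY6 here. In its name, 35S is the cauliflower mosaic virus promoter, which is active in most tissues of the plant rather than where WRKY6 is normally transcribed, and the label names a single line. The wild type is of the Columbia ecotype. The series holds 3 arrays in all, and the third, of the knockout wrky6-1, is given beside some members. All seedlings were 7 days old and had been grown whole on MS agar, after 2 days in the cold, at 22 °C under constant light (40 µmol of photons per square metre and second). How many plants went into each RNA sample is not given in the sources used here.

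No genotype was replicated. Every fold below is therefore a ratio of single arrays, with no test, no p-value and no SD between plants, and the comparison shows how these arrays differed rather than what the genotype does. In whole seedlings, fewer cells of a type and less RNA per cell cannot be told apart. Signals are linear array intensities in arbitrary units. A signal under 45.5, the pooled 30th percentile, was raised to that floor, and a probe set was counted as measured where the higher of its signals reached 174.6, the pooled 50th percentile. Where a signal lay under the floor, its fold gives only a minimum, marked by "at least". By this rule 12139 of 22746 Arabidopsis probe sets were measured in 35S:WRKY6 or wild type. They named 6322 of the 13355 genes that a single-gene probe set represents. In the annotation used, 5342 of the 6322 have a locus code (a chromosome number and a serial number along it) in place of a symbol. These are called locus-coded, and some of them also carry a descriptive synonym.

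WRKY proteins are plant transcription factors that bind a short promoter element, the W-box, through a domain containing the amino acids that give them their name. WRKY6 is known from leaf senescence, from the response to pathogens and from phosphate supply, where it represses PHO1, a gene for phosphate export into the xylem. No named probe set for PHO1 was analysed here.

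The check of the line came first. WRKY6 (AT1G62300, on chromosome 1) had a signal of 9245 in 35S:WRKY6, 12.1 in wrky6-1 and 322 in wild type. The 35S:WRKY6 signal was 28.7-fold higher than wild type (log2 ratio 4.84), the largest rise among the 6322 genes, so the array labelled 35S:WRKY6 held the transcript its label names. The gene before WRKY6 on the chromosome, AT1G62290, had a signal of 201 in 35S:WRKY6, 1260.3 in wrky6-1 and 505 in wild type, a log2 ratio of -1.33 for 35S:WRKY6 over wild type. The nearest other measured genes, AT1G62250 and AT1G62330, had log2 ratios of 0.06 and -0.13.

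At a threshold of 2-fold, 460 probe sets were higher in 35S:WRKY6, which is 3.79% of those measured, and 681 were lower, which is 5.61%. Together they were 9.4% of the measured probe sets. With the arrays set to equal medians in place of the deposited scale, 566 were higher and 533 lower, so the share of the changed probe sets that were higher was 51.5%, against 40.3% on the deposited scale. That scaling moved the median log2 ratio of all measured probe sets to 0.09 in place of -0.02. The excess of lower over higher probe sets was thus lost with equal medians. It was kept with quantile scaling, at 506 higher and 604 lower, and with lowess scaling, at 502 higher and 621 lower.

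Counted as genes, 237 were higher by 2-fold or more (3.75%) and 370 lower (5.85%), together 9.6%. At 4-fold, 44 genes were higher and 52 lower, and at 8-fold 5 were higher and 11 lower. Genes with a symbol and locus-coded genes gave close shares, since 10.2% of 982 symbol-carrying probe sets and 9.43% of 5386 locus-coded ones changed 2-fold.

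**Figure D1:**
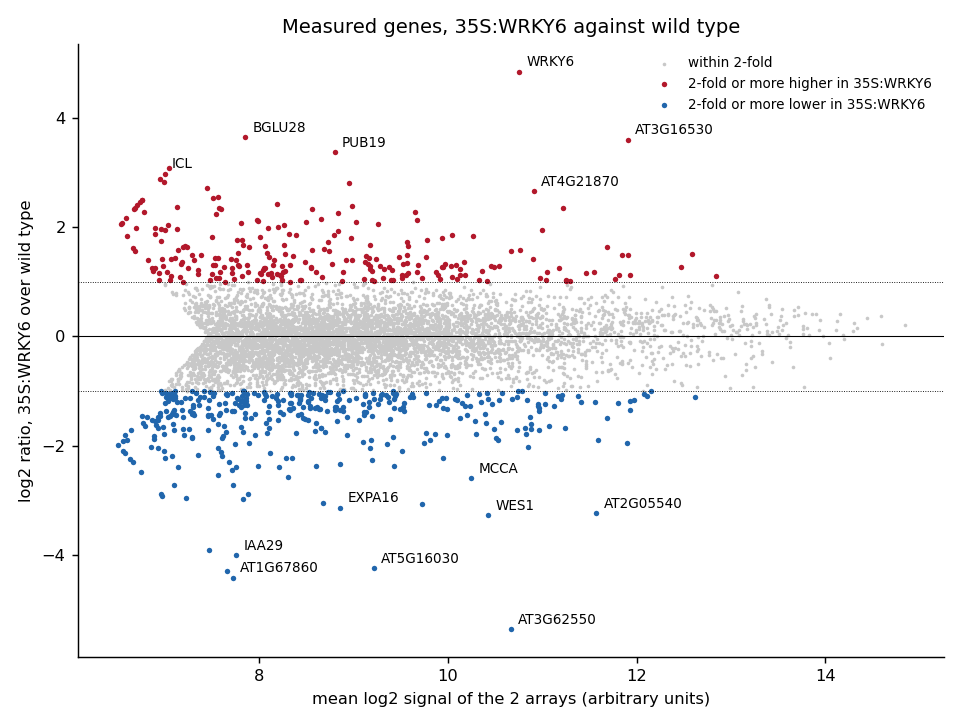
Log2 ratio of 35S:WRKY6 over wild type (vertical axis) against the mean log2 signal of both arrays after the floor (horizontal axis), 1 point per measured gene, with the 237 genes at least 2-fold higher in red and the 370 at least 2-fold lower in blue. WRKY6 stands highest at 4.84 and AT3G62550 lowest at -5.36, and the wedge at the left edge is the filter on low signals.

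How often a probe set passed 2-fold depended on its signal. Ranked by mean signal in 5 equal bins, the lowest bin had 6.80% of probe sets higher and 10.7% lower, while the highest bin had 2.76% higher and 3.95% lower. The SD of the log2 ratios across probe sets was 0.84 in the lowest bin and 0.57 in the highest. Of the 460 higher probe sets, 199 had a wild-type signal under the filter, so that only a rise could bring them into the count, and likewise 289 of the 681 lower ones had a 35S:WRKY6 signal under it. Where both signals reached the filter, 2.45% of 10666 probe sets were higher and 3.68% lower.

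**Figure D2:**
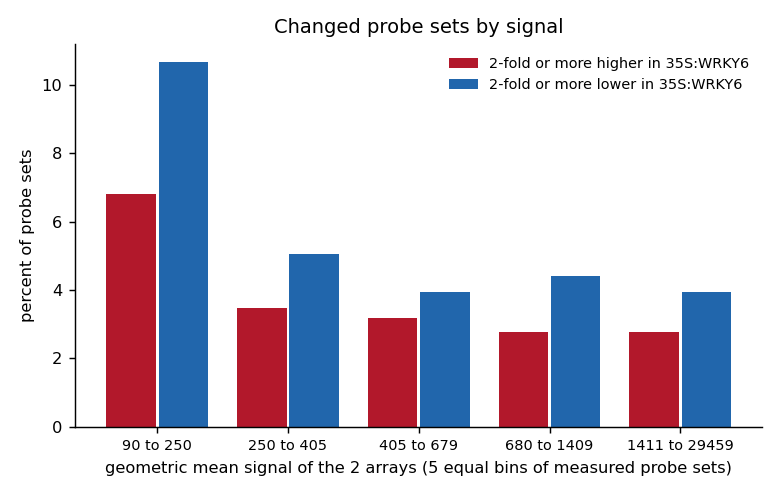
Percent of measured probe sets changed 2-fold or more in 35S:WRKY6, higher in red and lower in blue (vertical axis), in 5 equal bins of the measured probe sets by geometric mean signal (horizontal axis, arbitrary units). The lowest bin has the tallest bars, at 6.80% and 10.7%.

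The only measure of precision that these arrays hold comes from genes that several probe sets represent. Over 45 such genes with 90 probe sets, the SD of a single log2 ratio was 0.25, and the largest gap within a gene was 0.98. A probe set passed 2-fold in 3 of these genes, and in 0 of them did every probe set pass. The ratios of AT4G02480, for example, were -1.23 and -0.32. This SD leaves out all differences between plants, extractions and hybridisations. A ratio near the threshold is thus not separated from it, as with AT4G24380, just inside at 2.00-fold (454 in 35S:WRKY6 against 227 in wild type), and AT5G46450, just outside at 1.99-fold (333 in 35S:WRKY6 against 167 in wild type).

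The genes were sorted into 46 function groups by their symbols and synonyms. Of the measured genes, 5326 locus-coded ones and 490 with a symbol fell in no group. The share and direction of a group thus describe its sorted members, and genes of the same function may lie outside it. Over all measured genes 3.75% were higher and 5.85% lower, and the counts of each group are to be read against those shares. Among groups with 10 or more measured genes, amino acid breakdown had the lowest median. Of its 10 measured genes, 5 were at least 2-fold lower in 35S:WRKY6 (50%, against 5.85% of all measured genes) and 0 higher, and the median log2 ratio was -0.87, against -0.05 over all measured genes. These enzymes take carbon from amino acids into mitochondrial respiration, and their transcripts are known to be abundant in darkness and low sugar. MCCA and MCCB, the subunits of methylcrotonoyl-CoA carboxylase in the leucine pathway, were both lower. MCCA had a signal of 494 in 35S:WRKY6 against 2980.0 in wild type, 6.03-fold lower. MCCB had one of 749.8 in 35S:WRKY6 against 1809 in wild type, 2.41-fold lower. IVD, the isovaleryl-CoA dehydrogenase one step before them, was at 878 in 35S:WRKY6 against 2614 in wild type, so the consecutive leucine steps were lower together. The bifunctional lysine-degrading enzyme LKR/SDH (AT4G33150) was at 529 in 35S:WRKY6 against 1142 in wild type, 2.16-fold lower.

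The electrons that IVD removes pass through a flavoprotein, ETF, and its quinone oxidoreductase, ETFQO. ETFQO lay at the threshold, at 298 in 35S:WRKY6 against 602 in wild type (log2 ratio -1.01), and under quantile, equal-median and lowess scaling it fell short of it, leaving 4 lower genes in the group. The ETF subunits ETFBETA and ETFALPHA had log2 ratios of -0.70 and -0.13. ALDH6B2, which acts in valine breakdown, had a log2 ratio of -0.72, the transaminase ATBCAT-5 of -0.53, and D2HGDH, a 2-hydroxyglutarate dehydrogenase, of 0.09. Of the 10 genes 9 were below 0. On the wrky6-1 array, which is compared with the same wild-type array, the signals were 355 for MCCA, 410.3 for IVD and 555 for MCCB.

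Autophagy and energy-sensing genes leaned the same way with smaller differences. Of 12 measured genes 2 were at least 2-fold lower (16.7%, against 5.85%) and 0 higher, with a median of -0.36. AKINBETA1, a β subunit of the SnRK1 kinase that responds to low energy, had a signal of 1123 in 35S:WRKY6, 378 in wrky6-1 and 3126 in wild type. ATG8 proteins are ubiquitin-like proteins that coat the growing autophagosome, and among them ATG8B was at 249 in 35S:WRKY6 against 629 in wild type, 2.53-fold lower. The log2 ratios of the other ATG8 genes lay between -0.69 for APG8H and 0.28 for ATG8G, and ATG3, the enzyme that attaches ATG8 to lipid, had one of 0.02.

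**Figure D3:**
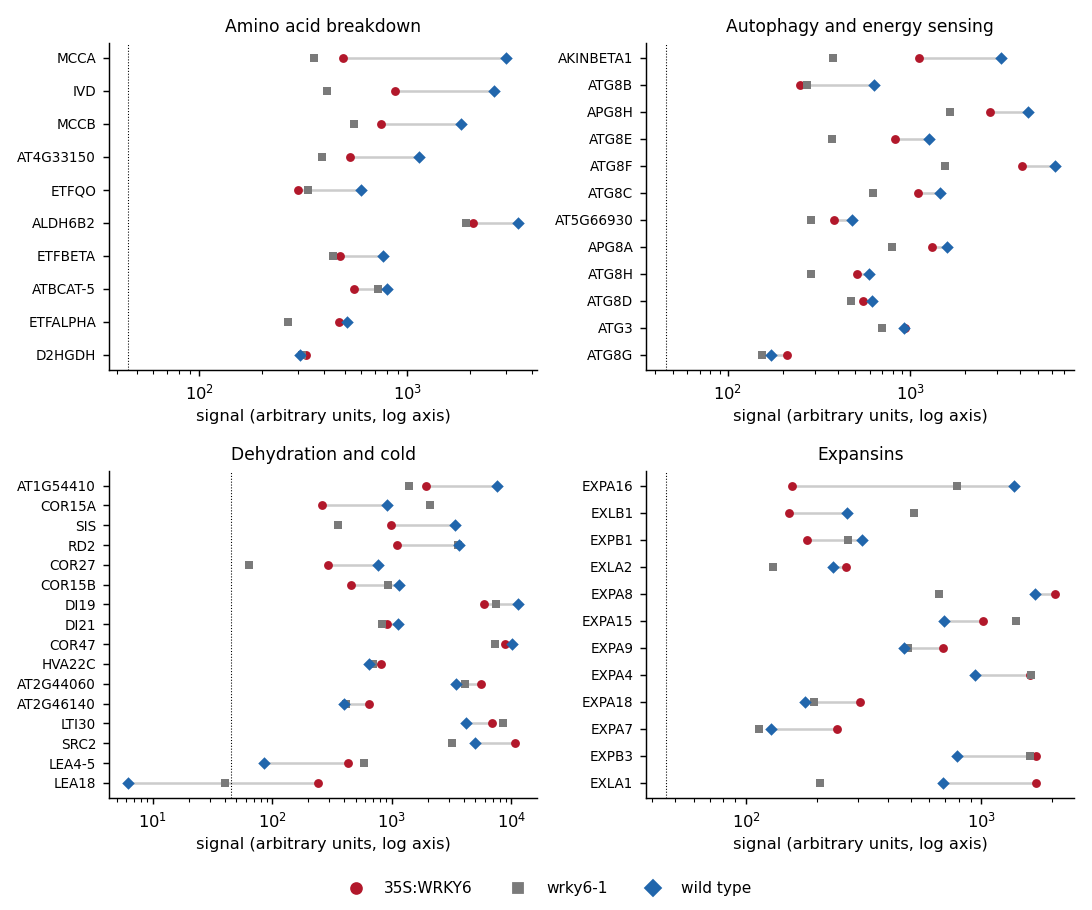
Signal in arbitrary units on a log axis for each measured member of 4 function groups (red circles 35S:WRKY6, grey squares wrky6-1, blue diamonds wild type, dotted line the floor of 45.5). MCCA, at the top of the first panel, lies at 494 in 35S:WRKY6 and 2980.0 in wild type, and LEA18, at the foot of the third, has a wild-type signal of 6.27, under the floor.

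Auxin genes held some of the largest falls. IAA29, one of the Aux/IAA proteins that repress auxin responses and are themselves induced by auxin, had a signal of 54.0 in 35S:WRKY6, 31.4 in wrky6-1 and 865 in wild type. WES1 encodes a GH3 enzyme that joins auxin to amino acids, and its signal was 441 in 35S:WRKY6, 797 in wrky6-1 and 4287 in wild type, the first 9.71-fold lower than the last. Other members of both families did not reach 2-fold, with IAA18 at a log2 ratio of -0.55, GH3.3 at 0.26 and GH3.17 at -0.17. Of the 29 Aux/IAA genes, 7 had a single-gene probe set, 2 were measured and 4 were under the floor on both arrays, so the family as a whole was barely seen.

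Among light and clock genes, FHL, which helps carry phytochrome A into the nucleus, had a signal of 61.2 in 35S:WRKY6 against 323 in wild type, and GI, the clock protein GIGANTEA, was at 329.9 in 35S:WRKY6 against 1297 in wild type. The clock regulator TIC differed little, at 1285 in 35S:WRKY6 against 1292 in wild type. The cytokinin-induced response regulator RR16 was 5.88-fold higher, with a signal of 459 in 35S:WRKY6, 143 in wrky6-1 and 78.1 in wild type. It was the only one of 10 listed type-A response regulators with a measured single-gene probe set. ARR15, the other one with a single-gene probe set, was under the filter on both arrays, at 84.0 in 35S:WRKY6 and 52.3 in wild type.

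Dehydration and cold genes split. Of 16 measured, 3 were higher by 2-fold or more (18.8%, against 3.75% of all measured genes) and 6 lower (37.5%, against 5.85%). On the higher side stood LEA18 and LEA4-5, named as late embryogenesis abundant proteins, which protect drying cells. LEA18 had a signal of 240.2 in 35S:WRKY6 against 6.27 in wild type, where the wild-type value was under the floor. LEA4-5 was at 432 in 35S:WRKY6, 586 in wrky6-1 and 85.9 in wild type. LEA18 and LEA4-5 had wild-type signals under the filter and were measured only through 35S:WRKY6. LEA26 (AT2G44060) and LEA27 (AT2G46140) had log2 ratios of 0.69 and 0.71, short of 2-fold. SRC2, a membrane-associated C2-domain protein, was 2.16-fold higher, at 10772 in 35S:WRKY6 against 4991 in wild type.

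The lower members included the cold-regulated chloroplast proteins COR15A and COR15B, which are neighbours on chromosome 2. COR15A was at 261 in 35S:WRKY6, 2081 in wrky6-1 and 913 in wild type. COR15B was at 453 in 35S:WRKY6, 929 in wrky6-1 and 1139.9 in wild type. On the wrky6-1 array COR15A was thus above wild type and COR15B below it. HIRD11 (AT1G54410), a small dehydrin, was at 1941 in 35S:WRKY6 against 7533 in wild type. The dehydration-responsive gene RD2 was at 1098 in 35S:WRKY6 against 3616 in wild type, and the salt-induced gene SIS at 978 in 35S:WRKY6 against 3395 in wild type. COR27, a cold-regulated repressor linked to the clock, was 2.59-fold lower. The larger dehydrins LTI30 and COR47 stayed within 2-fold, with log2 ratios of 0.72 and -0.18. The group therefore held both the LEA rises and the COR falls, and its median of -0.24 describes neither.

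Transcription factors were few among the named genes. Of 5 measured WRKY genes, WRKY6 itself was higher and WRKY47 at least 5.58-fold lower, at 40.7 in 35S:WRKY6, 355 in wrky6-1 and 254 in wild type. WRKY22, ZAP1 and WRKY20 had log2 ratios of 0.53, -0.10 and -0.02. STZ, a zinc finger repressor induced by cold and salt, was 3.43-fold lower (470.2 in 35S:WRKY6 against 1611 in wild type). ORA47, an AP2/ERF factor that acts on jasmonate synthesis, was at 89.5 in 35S:WRKY6 against 489.6 in wild type, while EIN3, the central ethylene factor, had a log2 ratio of -0.59.

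Among 12 bHLH factors 2 were lower and 0 higher. Both belong with iron supply, bHLH121 at 462 in 35S:WRKY6 against 1196 in wild type and bHLH115 at 382 in 35S:WRKY6 against 813 in wild type, which was short of 2-fold with equal medians. The related iron regulators ILR3, bHLH104, PYE and bHLH34 had log2 ratios of -0.07, 0.13, 0.36 and 0.89, so the iron regulators did not lie on 1 side. Of 13 bZIP and HD-ZIP genes, bZIP44 was 2.03-fold higher and BZIP61 2.24-fold lower. BPC1, which binds GA-rich promoter repeats, was at 121 in 35S:WRKY6 against 466 in wild type, and JKD, a zinc finger protein of root patterning, at 70.7 in 35S:WRKY6 against 224 in wild type.

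The ubiquitin system had 37 measured genes, of which 3 were higher (8.11%, against 3.75% over all measured genes) and 4 lower (10.8%, against 5.85%). The plant U-box ligases, which attach ubiquitin to chosen proteins, lay on both sides. PUB19, a ligase of the drought response, was 10.4-fold higher, with a signal of 1435 in 35S:WRKY6, 423 in wrky6-1 and 138 in wild type. PUB22, known from the damping of immune responses, was at 408 in 35S:WRKY6 against 172 in wild type. PUB25 and PUB26 lay on the other side, 2.67-fold lower and 2.18-fold lower. PUB23 and PUB24, the close relatives of PUB22, had log2 ratios of 0.55 and 0.22. Among RING ligases, ATL8 and RING1 were 3.40-fold lower and 2.58-fold lower, and ATL4H was 2.38-fold higher. PUB19, PUB22 and ATL4H had wild-type signals under the filter, at 138, 172 and 75.4, and were measured only through 35S:WRKY6. PUB25, PUB26 and RING1 had 35S:WRKY6 signals under it, at 82.3, 90.1 and 131, and were measured only through wild type. The shares of the group rest largely on such members.

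Expansins, which let wall polymers slide as cells grow, were mostly above wild type, with 1 large fall. Of 12 expansins, 9 had a log2 ratio above 0 and the median was 0.55, with 2 at least 2-fold higher and 1 lower. EXLA1 was at 1702 in 35S:WRKY6, 207 in wrky6-1 and 689.6 in wild type. EXPB3 was at 1711 in 35S:WRKY6 against 786 in wild type. EXPA16 went the other way and was 8.81-fold lower, at 156 in 35S:WRKY6, 787 in wrky6-1 and 1379 in wild type. The root hair expansins EXPA7 and EXPA18 had log2 ratios of 0.92 and 0.77, and EXPA7 passed the filter only through its 35S:WRKY6 signal of 243, against 128 in wild type. Under each of the 3 other scalings, 3 expansins were at least 2-fold higher.

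Of 6 xyloglucan-modifying XTH enzymes, XTH20 was 4.79-fold higher (999.9 in 35S:WRKY6 against 209 in wild type), and the log2 ratios of the other 5 lay between -0.28 and 0.85. Among 28 genes of pectin and other wall polysaccharides, 1 was higher and 0 lower. It was ATPMEPCRB, a pectin methylesterase, at 788 in 35S:WRKY6 against 298 in wild type. Of 7 measured tubulin and actin genes 0 reached 2-fold. TUB6 was lowest, at 2716 in 35S:WRKY6 against 4149.6 in wild type, and 6 of the 7 were below 0, with a median of -0.28.

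The defence proteins recognised by name were mostly on the higher side, with 4 of 12 at least 2-fold higher (33.3%, against 3.75%), 1 lower and a median of 0.39. Defence genes known only by a locus code are not in this count. ChiC, a chitinase, was at 1245 in 35S:WRKY6 against 299.9 in wild type, 4.15-fold higher. SGT1A, a co-chaperone of immune receptors, was at 1289 in 35S:WRKY6 against 524 in wild type, and the thaumatin-like protein ATLP-1 at 886 in 35S:WRKY6 against 377 in wild type. The defensin PDF1.2b was at 269 in 35S:WRKY6 against 128 in wild type and was measured only through 35S:WRKY6. The thionin THI2.2 was the exception, 5.17-fold lower at 302 in 35S:WRKY6, 912 in wrky6-1 and 1562 in wild type. Other defensin genes, PDF1.4, PDF2.1, LCR68, LCR69 and PDF2.5, had log2 ratios between -0.07 and 0.43.

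The β-glucosidases release active compounds from their glucosides, and 2 of 11 measured ones were higher and 0 lower. BGLU28 had a signal of 814 in 35S:WRKY6, 353 in wrky6-1 and 65.1 in wild type. BGLU19 had one of 316 in 35S:WRKY6, 41.1 in wrky6-1 and 61.6 in wild type. Both had wild-type signals under the filter. PYK10, the abundant β-glucosidase of root endoplasmic reticulum bodies, was at 17509 in 35S:WRKY6 against 14213 in wild type. Of 3 jacalin-type lectins, which associate with such bodies, JAL22 was 2.40-fold higher (3595 in 35S:WRKY6 against 1501 in wild type), and JAL33 and JAL34 had log2 ratios of 0.63 and 0.35.

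In the redox group, 2 of 21 genes were higher (9.52%, against 3.75%) and 1 lower (4.76%, against 5.85%), with a median of 0.32. Redox genes with neither a descriptive symbol nor a descriptive synonym are not in this count. The 2 rises were class III peroxidases of the wall. PRX25 (AT2G41480) was at 416 in 35S:WRKY6 against 123 in wild type, and PRX71 (AT5G64120) at 3183 in 35S:WRKY6 against 1409 in wild type. PRX25 had a wild-type signal under the filter and was measured only through 35S:WRKY6. The peroxidase Prx37 went the other way, with a log2 ratio of -0.85. MSRB6, which repairs oxidised methionine, was at 91.2 in 35S:WRKY6, 1063 in wrky6-1 and 415 in wild type. MSRB5 of the same family lay on the other side, at 3420.4 in 35S:WRKY6 against 1775 in wild type. Glutathione transferases of the tau class also differed from each other, since GSTU20 was 3.11-fold higher and GSTU16 3.34-fold lower. Outside these groups, the glutathione reductase GR1 was 2.01-fold higher, VTC4 of ascorbate synthesis 2.19-fold higher, and CCS, the copper chaperone of superoxide dismutase, 2.31-fold lower (860.3 in 35S:WRKY6 against 1984 in wild type).

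Of 28 measured UDP-glycosyltransferases 3 were lower (10.7%, against 5.85%) and 0 higher. UGT73B1 was at 129.6 in 35S:WRKY6, 338 in wrky6-1 and 677 in wild type. UGT73B5 and UGT74D1 were 3.11-fold lower and 2.14-fold lower. UGT73B1 and UGT73B5 had 35S:WRKY6 signals under the filter, at 129.6 and 62.4, and were measured only through wild type. The share of lower genes rests largely on them. UGT78D1, a flavonol rhamnosyltransferase, was the highest at a log2 ratio of 0.94, and it reached 2-fold under the same 3 scalings. DFR of anthocyanin synthesis had a signal of 228 in 35S:WRKY6 against 83.9 in wild type, where wild type was under the filter. HCT and CHIL, of phenylpropanoid and flavonoid synthesis, had log2 ratios of 0.51 and 0.15.

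In sulfur and methionine metabolism, the ATP sulfurylase gene APS4 was at 454 in 35S:WRKY6, 1153 in wrky6-1 and 2137 in wild type. MGL, which breaks down methionine, was at 774 in 35S:WRKY6, 787 in wrky6-1 and 1879 in wild type. The other ATP sulfurylase measured, APS3, had a log2 ratio of 0.34, and the sulfite reductase SIR one of 0.85, so the first steps of sulfate assimilation were not uniformly lower.

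Sugar and starch genes held 3 rises and 1 fall among 15. The sugar exporter SAG29 had a signal of 264 in 35S:WRKY6, 883 in wrky6-1 and 64.4 in wild type. SWEET4 of the same family was at 246 in 35S:WRKY6, 291 in wrky6-1 and 63.1 in wild type, while SWEET1 had a log2 ratio of -0.76. APL3, a subunit of the starch-forming ADP-glucose pyrophosphorylase, was at 248 in 35S:WRKY6 against 106 in wild type. All 3 rises had a wild-type signal under the filter. QQS, a gene found only in Arabidopsis that is linked to starch content, was at least 3.95-fold lower, with a signal of 26.3 in 35S:WRKY6, under the floor, 1.19 in wrky6-1, also under it, and 179.7 in wild type. That wild-type signal is just over the filter, and under quantile, equal-median and lowess scaling QQS was no longer measured, which left 0 lower genes among 14.

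ICL encodes isocitrate lyase, an enzyme of the glyoxylate cycle through which seedlings turn seed oil into sugar, and it was at least 7.89-fold higher, with a signal of 359 in 35S:WRKY6, 125 in wrky6-1 and 31.8 in wild type. Only 2 of 17 listed genes of the glyoxylate cycle and peroxisomal β-oxidation had a single-gene probe set in the annotation used. The other, AIM1, had a log2 ratio of -0.29. That of the oil lipase SDP1 was -0.55.

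Photosynthesis genes stayed mostly within 2-fold. Of 27 nuclear ones 0 reached 2-fold on the deposited scale, where their log2 ratios ran between -0.95 for NdhS and 0.84 for LHCB4.3. Under lowess scaling 1 nuclear gene was at least 2-fold lower. Of 63 measured plastid-encoded genes 5 were higher (7.94%) and 0 lower, with a median of 0.21. The 5 were ndhG, atpH, atpI, psbA and ycf3. The ATP synthase subunit genes atpH and atpI were 2.42-fold higher and 2.30-fold higher. The signal of psbA, for the D1 protein of photosystem II, was 5756 in 35S:WRKY6 against 2629.7 in wild type. At the other end psbI had a log2 ratio of -0.82, and rbcL, the large subunit of Rubisco, one of -0.25, so the plastid genes were not uniformly higher.

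**Figure D4:**
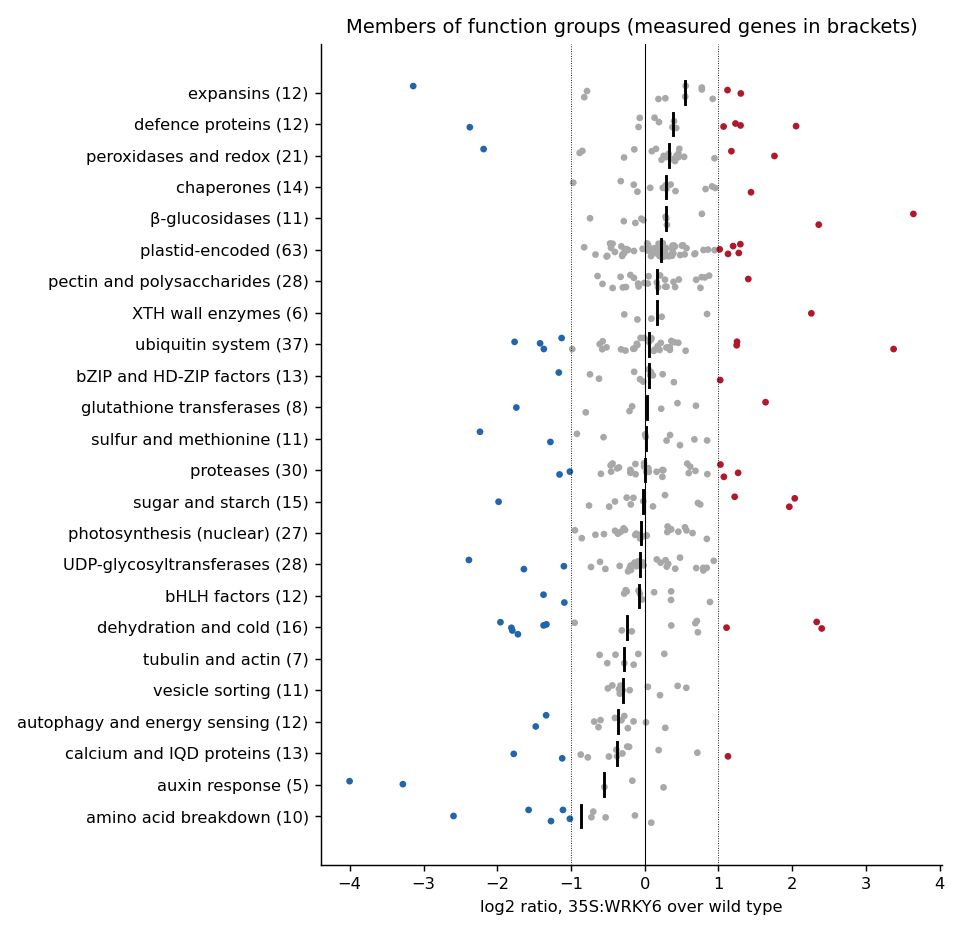
Log2 ratio of 35S:WRKY6 over wild type (horizontal axis) for each measured gene, by function group (rows, with the number of measured genes in brackets), red where at least 2-fold higher, blue where at least 2-fold lower and grey otherwise. Black bars mark group medians, which among the plotted groups run between -0.87 for amino acid breakdown and 0.55 for expansins.

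Calcium-related genes were mostly below 0, with 10 of 13 there and a median of -0.38, against -0.05 over all measured genes. Of the 5326 locus-coded genes in no group, 2891 were also below 0. The IQD proteins, scaffold proteins that bind calmodulin, included IQD22 at 146 in 35S:WRKY6 against 499.7 in wild type and IQD24 at 113 in 35S:WRKY6 against 244 in wild type, but also IQD23 at a log2 ratio of 0.71. IQD22 and IQD24 had 35S:WRKY6 signals under the filter and were measured only through wild type. CaS, a calcium-sensing protein of the thylakoid, was 2.19-fold higher, at 5314 in 35S:WRKY6 against 2429 in wild type. Of 7 RALF peptide genes, RALFL27 was 2.80-fold lower, while RALFL33, RALFL22 and RALFL24 had log2 ratios of 0.73, 0.71 and 0.69.

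Of 30 proteases and inhibitors, 3 were higher (10%, against 3.75% of all measured genes) and 2 lower (6.67%, near the 5.85% of all measured genes). The 3 were serine carboxypeptidase-like genes, with SCPL34 at 2233 in 35S:WRKY6, 343 in wrky6-1 and 928 in wild type. The others, scpl46 and scpl48, had log2 ratios of 1.07 and 1.03, and scpl46 was measured only through 35S:WRKY6, with a wild-type signal of 131.5. On the lower side stood PIP, 2.23-fold lower, and the subtilase ATSBT5.2, 2.02-fold lower. Under each of the 3 other scalings ATSBT5.2 fell short of 2-fold, leaving 1 lower. Among 14 chaperones, the heat-induced FK506-binding protein ROF2 (AT5G48570) was 2.72-fold higher, and 0 were lower. ROF2 was measured only through 35S:WRKY6, with a wild-type signal of 114.6. Under quantile and lowess scaling 2 chaperones were at least 2-fold higher, and with equal medians 3 were. In the chromatin group of 10, HIS1-3, a linker histone induced by drought, was 4.83-fold lower, at 267 in 35S:WRKY6, 137 in wrky6-1 and 1291 in wild type. The core histone genes HTB1, HTB2, HTB4 and HTB11 had log2 ratios of 0.45, 0.44, 0.25 and 0.18.

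Single members changed in several smaller families. ALDH7B4, a stress-related aldehyde dehydrogenase, was at 3038 in 35S:WRKY6 against 6449 in wild type, 1 of 7 in its family, and short of 2-fold with equal medians. The tetraspanin gene TET2 was at 205 in 35S:WRKY6 against 457 in wild type, and CHX20, a cation exchanger of guard cells, at 108 in 35S:WRKY6 against 307 in wild type. The MATE transporter DTX50 (AT5G52050) lay just past the threshold, at 281 in 35S:WRKY6 against 140.0 in wild type. No member reached 2-fold among 7 measured cytochrome P450 genes or 11 genes of vesicle sorting, where the largest differences were the log2 ratios of CYP71B23, -0.74, and SNF7.1, 0.56.

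A further 21 symbol-carrying genes outside the groups changed 2-fold, 6 higher and 15 lower. Phosphoglycerate mutase PGM (AT1G78050) was 3.97-fold higher, at 545 in 35S:WRKY6, 207 in wrky6-1 and 137 in wild type. Cytochrome c gene CYTC-2 was at 1999 in 35S:WRKY6 against 867 in wild type. OPCL1, a CoA ligase of jasmonate synthesis, and ATC, a relative of the flowering repressor TFL1, were 2.39-fold higher and 2.31-fold higher. On the lower side, ECS1 had a signal of 1959 in 35S:WRKY6, 14374 in wrky6-1 and 5517 in wild type, and WAG2, a kinase that acts on auxin transport, was at 101 in 35S:WRKY6 against 246 in wild type. The remaining lower ones, among them ATIM, ZCF37, pEARLI4, NET1B and ATGRIP, were between -1.84 for ATIM and -1.05 for SHL1 on the log2 scale.

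Among the 40 largest rises 30 genes were locus-coded, and among the 40 largest falls 28 were, against 5342 of the 6322 measured genes. The rises spanned 4.15-fold to 28.7-fold with a median of 5.12, and 27 of the 40 had a wild-type signal under the filter. The falls spanned 4.55-fold to 41.0-fold with a median of 5.86, and 31 of the 40 had a 35S:WRKY6 signal under the filter. Of the folds, 11 among the rises and 8 among the falls are minimums. The reference table used here pairs these codes with no function, so they are described by their signals alone. The wrky6-1 signal was above wild type in 33 of the 40 rises and below it in 36 of the 40 falls. Most of the largest differences thus had the same direction in both lines. These genes were chosen on the same wild-type values, which favours such counts, and the counts over all measured genes are not given here. The counts also use signals before the floor. For LEA18 and AT1G76960 the wrky6-1 signals, 40.3 and 29.4, and the wild-type signals, 6.27 and 6.81, were all under it. Both lines are compared with 1 wild-type array, and a deviation of that array cannot be told apart from a difference of both lines.

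The locus-coded rise with the highest ratio was AT3G16530, at 13379 in 35S:WRKY6, 1855 in wrky6-1 and 1101 in wild type, 12.2-fold higher. It is also among the few large rises whose signal was well above the filter on both arrays. AT4G21870 was at 4840.5 in 35S:WRKY6, 900.1 in wrky6-1 and 765 in wild type. AT2G41090 was at 5381 in 35S:WRKY6, 2925 in wrky6-1 and 1054 in wild type. AT2G34930 was at 1310.1 in 35S:WRKY6, 396 in wrky6-1 and 188 in wild type. In all 4 genes the wrky6-1 signal lay between those of the other arrays. AT5G18840 was at least 8.45-fold higher, with a wild-type signal of 44.6, and AT2G47880 at least 7.34-fold higher, with one of 35.4, both under the floor. AT5G51440 was at 339 in 35S:WRKY6 against 47.7 in wild type, AT3G25790 at 445 in 35S:WRKY6 against 67.8 in wild type, and AT5G19110 at 438 in 35S:WRKY6 against 75.4 in wild type.

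Further rises with a wild-type signal above the filter were AT4G36010 at 1151 in 35S:WRKY6 against 221 in wild type, AT5G40540 at 847 in 35S:WRKY6 against 191 in wild type and AT5G38020 at 1705 in 35S:WRKY6, 1340.3 in wrky6-1 and 392 in wild type. AT5G38020 was thus high on both line arrays. AT1G14960 was at 1079.9 in 35S:WRKY6, 262 in wrky6-1 and 252 in wild type, and AT2G41730 at 746 in 35S:WRKY6, 271 in wrky6-1 and 176 in wild type. In these the wrky6-1 and wild-type signals lay closer to each other than to that of 35S:WRKY6. AT2G27080 was at 851 in 35S:WRKY6, 121 in wrky6-1 and 168 in wild type, the lowest of its signals being that of wrky6-1.

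The deepest fall was that of AT3G62550, with a signal of 254 in 35S:WRKY6, 3314 in wrky6-1 and 10427 in wild type, so 35S:WRKY6 was 41.0-fold lower than wild type. The wrky6-1 signal lay between the others. AT2G05540 was at 991 in 35S:WRKY6, 3769 in wrky6-1 and 9347 in wild type, and AT5G16030 at 137 in 35S:WRKY6, 209 in wrky6-1 and 2586 in wild type. AT2G14900 was at 293 in 35S:WRKY6, 416 in wrky6-1 and 2449.8 in wild type and AT1G12080 at 142 in 35S:WRKY6, 136 in wrky6-1 and 1179 in wild type. In the last 3 genes both lines were far below wild type. The lines share 1 wild-type array, and a deviation of that array cannot be told apart from a difference of both lines.

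AT5G39520 was at least 15.1-fold lower and AT3G62950 at least 7.60-fold lower, with 35S:WRKY6 signals of 7.08 and 3.06, under the floor, against wild-type signals of 686 and 346. AT1G06830 was at 33.6 in 35S:WRKY6, 385 in wrky6-1 and 338 in wild type. AT5G55450 was at 7.46 in 35S:WRKY6, 642 in wrky6-1 and 224 in wild type. In those last genes wrky6-1 was above wild type while 35S:WRKY6 was under the floor. AT4G25780 was at 53.6 in 35S:WRKY6, 275 in wrky6-1 and 418 in wild type, its wrky6-1 signal lying between the others. AT4G10910 and AT4G23870 had nearly equal line signals, at 81.2 in 35S:WRKY6, 72.5 in wrky6-1 and 639 in wild type for the first and 86.2 in 35S:WRKY6, 71.2 in wrky6-1 and 639 in wild type for the second.

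**Figure D5:**
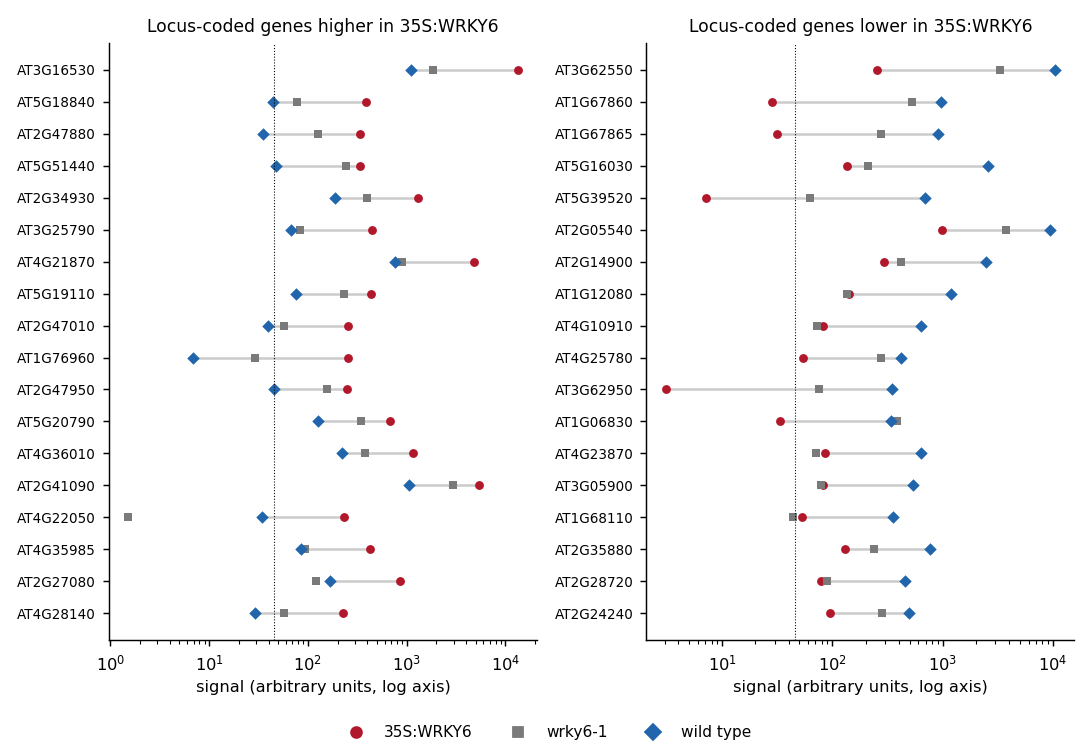
Signal in arbitrary units on a log axis for the 18 locus-coded genes with the largest rise (left panel) and the 18 with the largest fall (right panel), ordered by ratio from the top (red circles 35S:WRKY6, grey squares wrky6-1, blue diamonds wild type, dotted line the floor of 45.5). AT3G62550 spans 254 in 35S:WRKY6 to 10427 in wild type, and AT3G16530 spans 13379 in 35S:WRKY6 to 1101 in wild type.

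Of 1643 pairs of measured genes next to each other in the TAIR10.1 gene order, both were at least 2-fold higher in 6, both lower in 10, and they moved oppositely in 7. At 5 genes apart, 1477 pairs gave 3 both higher, 11 both lower and 3 opposite, a both-lower count no smaller than that of adjacent pairs. The log2 ratios of adjacent genes had a Pearson r of 0.12 across pairs, which are not independent replicates, and r was 0.04 at 2 genes apart and -0.04 at 10 genes apart. The strongest pair was AT1G67860 and AT1G67865, at 28.3 in 35S:WRKY6, 523 in wrky6-1 and 971 in wild type for the first and 31.1 in 35S:WRKY6, 275 in wrky6-1 and 899 in wild type for the second. Neighbours that are copies of each other can share hybridisation, and whether these do was not analysed here. Other pairs were COR15B and COR15A, described above, AT5G19240 and AT5G19250 with log2 ratios of 2.28 and 1.16, and AT3G57010 and AT3G57020 with 1.24 and 1.41. PGM formed a run of 3 with AT1G78060 and AT1G78070, at 1.17 and 1.16. Over the nuclear chromosomes the share of lower genes ran between 4.80% on chromosome 3 and 6.77% on chromosome 1, and that of higher genes between 3.30% on chromosome 3 and 4.13% on chromosome 5.

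The arrays were alike in scale. Their 2% trimmed means were 499.8 in 35S:WRKY6 and 500.05 in wild type, and their median signals 169 in 35S:WRKY6 and 182 in wild type. Under the floor lay 30.3% of Arabidopsis probe sets in 35S:WRKY6 and 29.8% in wild type. The Pearson r of log2 signals across probe sets was 0.968. Of 12 shoot marker genes only RCA, for Rubisco activase, had a single-gene probe set, with a signal of 25048 in 35S:WRKY6 against 19737 in wild type. The summed signal of the root markers PYK10, EXPA18 and EXPA7, 3 of 8 listed, was 18057 in 35S:WRKY6 and 14519 in wild type. Both organs of the seedling were thus represented on both arrays, and the part of organ proportions in the gene differences was not tested. None of 7 listed seed storage and embryo genes had a single-gene probe set, and the 1 pollen marker with one was under the floor on both arrays.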

How the data were processed

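The data are 1 deposited table of signal intensity on a linear scale, with a column for each array. GCOS 1.0 and MAS5 are named, without a step, in the submitters' processing notes. The equal trimmed means show that the authors had scaled the deposited intensity values, and they were used unchanged. The genome build is not given in the sources used here. The 64 control probe sets were left out, signals under the floor were raised to it, the filter was applied, and log2 ratios were taken (Python 3.11.15, numpy 2.4.6, pandas 2.3.3). The calculation was tested on simulated data. Gene names come from the platform annotation, updated to TAIR10.1 by Entrez identifier. One gene was named for 13513, several for 503, and 8730 were not listed. A gene takes its brightest single-gene probe set. Named genes are WRKY6, the 40 largest rises and falls, the leading members of each group (all members where few were measured), list members and genes at the thresholds. The 21 symbol genes outside the groups and some group members were named after their values were seen. Members, groups and lists were chosen with earlier results of these data known. Quantile, equal-median and lowess scaling, other floors and filters and a pseudocount were tried as alternatives. The number of arrays limits the precision. No sequence is shown and W-box letters were not searched, because no promoter table was used here.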

Additional observations from a re-analysis of the deposited data

Results flagged for a closer look

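Control probe sets outside the gene comparison differed between the arrays. The later set of hybridisation controls, bacterial and phage transcripts added in fixed amounts, had a median ratio of 1.31 for 35S:WRKY6 over wild type, and all 9 were above 1 (1.17 to 1.39). They drew attention because they stand in data that no gene comparison uses. The 9 hybridisation controls of the earlier set were listed at 0 on the 35S:WRKY6 array, while their median on the wild-type array was 889. The later Bacillus controls, with 12 probe sets, had a median ratio of 0.867, and the 12 of the earlier set one of 1.00. On the probe set for 25S rRNA, signals were 152 in 35S:WRKY6 (0.492 of wild type), 65.2 in wrky6-1 (0.21 of wild type) and 309.9 in wild type. The part of these controls in the gene ratios was not tested.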

How the results depend on the processing

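With a filter at the 70th percentile, which keeps 7540 probe sets, 283 were higher and 414 lower. All of them were among the 460 and 681, since a stricter filter can only remove probe sets. Under the other 8 settings the counts ran between 335 and 593 higher and between 476 and 884 lower. Of the 80 genes with the largest ratios, 0 changed direction under any setting that measured them, and 20 of 678 recomputed values were under 2-fold. These genes were chosen for their large ratios, and a floor, filter or pseudocount cannot reverse a direction. The count of 0 is therefore no evidence for them. A floor at the 50th percentile and a pseudocount each moved 54 of the 80 log2 ratios by more than the probe-set SD, since both shrink ratios of low signals. Of 46 group medians, 9 changed sign under a scaling, and the largest of these 9 was 0.11 in size on the deposited scale. They were those of WRKY, bHLH, cytochrome P450, UGT, aldehyde dehydrogenase, nuclear photosynthesis, protease, sugar and tetraspanin genes. No paired analysis was possible because each genotype had 1 array. The planned search for W-box letters was not run. Low signals limit the comparison, and differences between plants cannot be judged from these arrays.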
